A study of Mus musculus with 12 samples.

Results

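Transcripts of the lysosomal peptidases named cathepsins and of 1 of their inhibitors, cystatin F, were followed in mouse spleen CD8 T cells after 6 hours in culture. The genes are Ctsa, Ctsb, Ctsc, Ctsd, Ctsh, Ctsl, Ctss, Ctsw, Ctsz and Cst7, which codes for cystatin F. They were taken by symbol from the deposited table, so that 10 of its 20778 genes were chosen, and all 10 were among the 12122 genes with enough counts for testing. The study asked how the expression profile of T cells differs between modes of activation, with 12 mRNA libraries in 4 groups of 3. All cells came from C57BL/6 spleens by magnetic bead isolation. Naïve cells were left untreated, and the other groups received an antibody to CD3 (αCD3, 1 µg/ml), interferon gamma (IFNγ, 70 ng/ml) or bacterial lipopolysaccharide (LPS, 1 µg/ml). The mice were 6 weeks old by the labels, whereas the methods of the study give an older age for its mice, and a second field of the labels gives the αCD3 and LPS doses as 1 mg/ml, so that age and doses are uncertain.

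Cathepsins are made as inactive precursors, travel to lysosomes on mannose 6-phosphate receptors and are activated by cleavage at acid pH. Most are cysteine peptidases, while cathepsin D is an aspartic and cathepsin A a serine peptidase. In cytotoxic lymphocytes, cathepsins C and H remove the propeptides that keep granzymes inactive, and cystatin F holds cathepsin C in check within the same compartment. In antigen-presenting cells, cathepsins S and L trim the invariant chain from class II molecules.

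The libraries held 10196200 to 27610200 estimated counts, and no member was at 0 in any library. The labelled cell type was checked against marker genes, summed as CPM (counts divided by the TMM-scaled library total and brought to the usual common scale). The 2 CD8 genes, Cd8a and Cd8b1, summed to 480.0 to 917 CPM and 10 T cell genes to 974 to 1997 CPM. However, 10 B cell genes summed to 3533 to 3804 CPM in the Naïve libraries and to 2103 to 3249 CPM in the others, above the T cell genes in every library, and none of them was at 0. Likewise, 16 macrophage and monocyte genes summed to 632 to 2038 CPM, with Cd163 alone at 0 in some libraries. Transcripts of other spleen cells were therefore present in libraries labelled CD8 T cells, and in such bulk RNA fewer cells of a type and less RNA per cell cannot be told apart.

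Libraries that carry replicate number 1 stood apart from numbers 2 and 3 in all 4 groups. In a fit with the number as a term, 7 of the 10 members were lower in number 1 than in the mean of numbers 2 and 3, beside 17.5% of all tested genes, and 0 were higher, beside 16.4% of all tested genes. The log2 difference ± standard error (SE), by edgeR's quasi-likelihood test, was largest for Ctsl (−0.99 ± 0.21, adjusted p = 0.00786), followed by Ctsb (−0.53 ± 0.075, adjusted p = 0.000803), Ctss (−0.50 ± 0.045, adjusted p = 6.53e-05), Cst7 (−0.39 ± 0.059, adjusted p = 0.000889) and Ctsz (−0.39 ± 0.039, adjusted p = 0.000112). Differences were smaller for Ctsc (−0.26 ± 0.048, adjusted p = 0.00257) and Ctsh (−0.23 ± 0.068, adjusted p = 0.0254), whereas Ctsd, Ctsa and Ctsw did not pass the test. All 15 tested macrophage and monocyte markers were also lower in number 1, with a median log2 difference of −0.82. The part of these cells in the member differences was not tested. The labels do not say whether the 3 libraries of a group came from separate mice or cultures, so that p-values measure only the spread between these libraries, which may be technical. Deviations of same-numbered libraries were correlated across groups, so that a fit with the number as a block is given beside each result whose call it changes, and values from numbers 2 and 3 alone are given where they end a call made without the block.

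**Figure D1:**
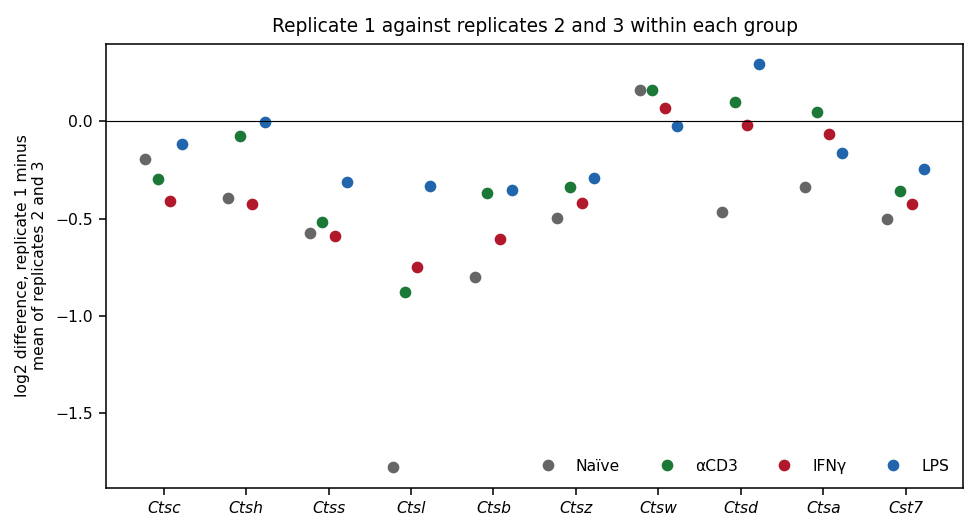
Log2 difference in CPM between replicate 1 and the mean of replicates 2 and 3 (vertical axis) for each gene (horizontal axis), with 1 point per group. Ctss, Ctsl, Ctsb, Ctsz, Cst7, Ctsc and Ctsh lie below 0 in all 4 groups, by differences of −0.0035 (Ctsh with LPS) to −1.78 (Ctsl) on the log2 scale, whereas Ctsd, Ctsa and Ctsw have points on both sides.

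All log2 changes below are given ± SE. Of the 10 members, 7 differed among the 4 groups (adjusted p under 0.05), against 59.9% of all tested genes, and with the block all 10 did, against 72.2%. In replicates 2 and 3 alone 8 did, with Ctsl (adjusted p = 0.124) and Ctsw (adjusted p = 0.289) not past the threshold. The share of all tested genes in that fit is not given here, so this count was not set against a background. Against Naïve cells, αCD3 lowered 3 members and raised 0, where 15.7% of tested genes fell and 22.9% rose. IFNγ raised 2 members and lowered 1, where 8.17% rose and 4.27% fell. LPS lowered 6 members and raised 0, where 22.3% fell and 26.9% rose. The median log2 change over the members was −0.37 with αCD3, −0.092 with IFNγ and −0.59 with LPS, whereas the medians over all tested genes were −0.017, −0.024 and −0.0099. With the block, αCD3 lowered 6 members and raised 2 (24.2% and 28.1% of all tested genes), IFNγ raised 3 and lowered 2 (13.5% and 11.4%), and LPS lowered 8 and raised 2 (28.4% and 31% of all tested genes). The balance with IFNγ depended on the scaling, since 2 rose and 5 fell when the blocked libraries were scaled by their size alone. In that fit 9.17% of all tested genes rose and 29.5% fell, so the shift was not particular to the members. All of these comparisons share the Naïve libraries.

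**Figure D2:**
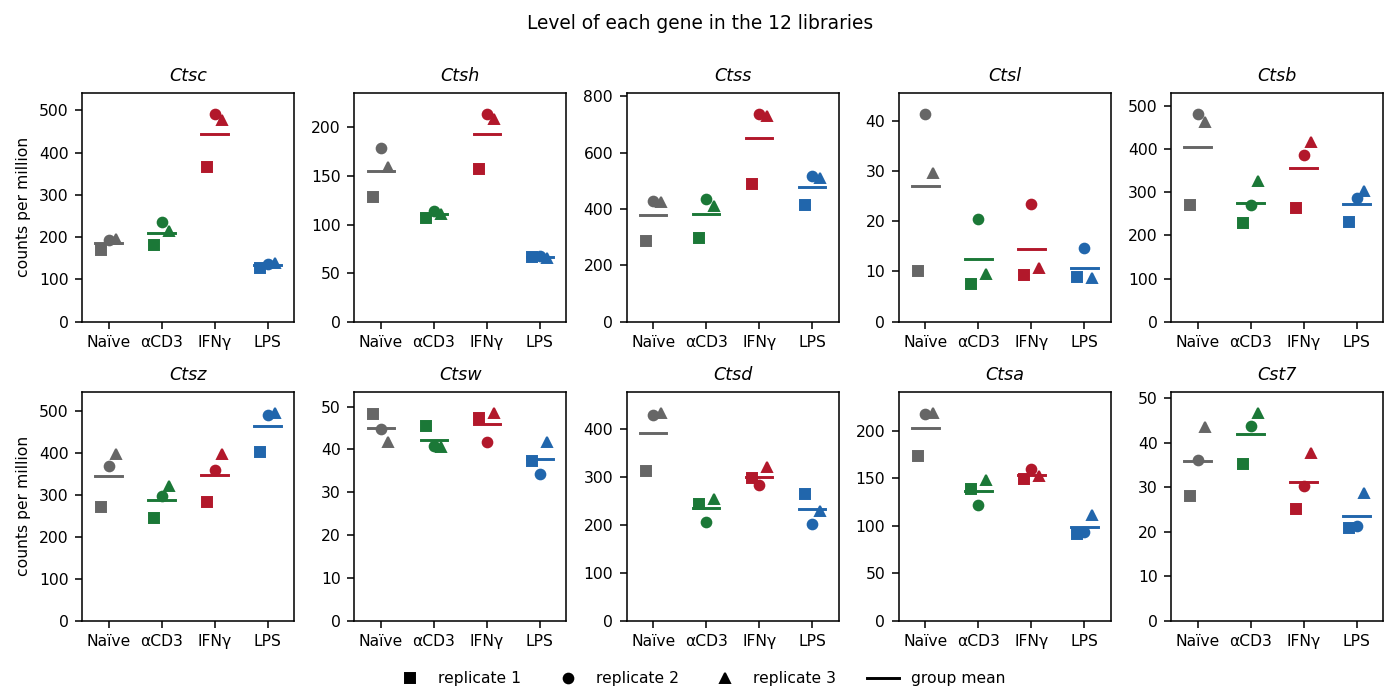
Level of each gene in CPM (vertical axis, linear from 0) in the 12 libraries (points, with shape for the replicate number) and the mean of each group (bars). Ctsc was highest in the IFNγ libraries and Ctsz in the LPS libraries. Ctss had its highest mean with IFNγ, although IFNγ replicate 1 lay below LPS replicates 2 and 3. Every member except Ctss and Ctsz had its lowest mean with LPS, though for Ctsb and Ctsd the αCD3 mean was nearly as low.

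Among the stimulated groups, IFNγ cells had 3 members above and 0 below αCD3 cells, where 15.8% and 21.4% of tested genes were above and below. They had 4 members above and 0 below LPS cells, where these shares were 18% and 22.4%. αCD3 cells had 4 members above LPS cells and 1 below, where the shares were 9.64% and 9.76%. With the block the counts were 5 above and 1 below for IFNγ against αCD3 (23.7% and 25.9% of all tested genes), 7 above and 1 below for IFNγ against LPS (25.8% and 26.9%), and 4 above and 2 below for αCD3 against LPS (16.5% and 18.2%). Ctsc and Ctsh were above in all 3 of these comparisons.

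Cathepsin C, also called dipeptidyl peptidase I, removes dipeptides from granzyme precursors. Its gene, Ctsc (chr7:88278085-88310888, plus strand, GRCm38), stood at 170.3, 193 and 196 CPM in the Naïve libraries and at 365, 492 and 478 CPM with IFNγ. It stood at 183, 236 and 214 CPM with αCD3 and at 127, 137 and 139 CPM with LPS. All IFNγ libraries lay above the other 9, and all LPS libraries below the other 9. IFNγ raised Ctsc 2.39-fold over Naïve cells (log2 change 1.25 ± 0.12, adjusted p = 0.000321), the largest change of any member there, and the level was 2.11 times that of αCD3 cells (log2 1.08 ± 0.12, adjusted p = 7.83e-05) and 3.32 times that of LPS cells (log2 1.73 ± 0.13, adjusted p = 3.03e-06). LPS lowered it 1.39-fold (log2 −0.47 ± 0.12, adjusted p = 0.00868). The gap between αCD3 and Naïve cells was small (0.17 ± 0.12, adjusted p = 0.285), and passed the test with the block (0.17 ± 0.063, adjusted p = 0.0426), though not when the blocked libraries were scaled by their size alone (0.058, adjusted p = 0.430). In the IFNγ libraries, where Ctsc was highest, 16 macrophage and monocyte genes summed to 1168 to 2038 CPM against 729 to 1359 CPM in Naïve libraries (2 of 15 tested higher, 1 lower), and 6 NK cell genes to 97.0 to 171 CPM against 79.5 to 88.3 CPM (1 of 6 higher, 0 lower). The NK gene that rose was Eomes, which CD8 T cells also express and which had a mean of 125 CPM with IFNγ against 63.7 CPM in Naïve cells, while the other 5 had means of at most 5.30 CPM in every group. The part of these cells in the Ctsc change was not tested.

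The promoter of Ctss, 1 of the 2 members that rose with IFNγ, is shown because it holds the core letters of the interferon-stimulated response element (ISRE, GAAANNGAAA), to which interferon regulatory factors bind. It is a RefSeq window of 300 bases on GRCm38.p6, from 250 bases before the start of transcription to 50 after it, searched on both strands. Capitals mark the match.
Ctss, chr3:95526536-95526835, plus strand: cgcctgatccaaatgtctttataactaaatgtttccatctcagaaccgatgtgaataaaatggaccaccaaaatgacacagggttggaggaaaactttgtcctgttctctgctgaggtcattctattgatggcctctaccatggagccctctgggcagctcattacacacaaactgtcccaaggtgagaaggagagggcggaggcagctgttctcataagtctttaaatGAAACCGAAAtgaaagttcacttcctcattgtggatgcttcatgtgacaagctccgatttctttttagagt
The match lay 21 bases before the start (chr3:95526765-95526774). Of 32851 RefSeq promoters of the same length, 3.44% held these letters. Promoters were found for 7 of the 10 members, and the windows of the other 6 (Ctsc, Cst7, Ctsa, Ctsz, Ctsd and Ctsl) did not hold them. Ctsb, Ctsh and Ctsw are the 3 without an entry.

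Cathepsin S is an endopeptidase that stays active at neutral pH and cuts the invariant chain. Ctss (chr3:95526786-95556403, plus strand) stood at 286, 428 and 424 CPM in Naïve, 296, 437 and 412 CPM in αCD3, 488, 738 and 729 CPM in IFNγ and 412, 516 and 508 CPM in LPS libraries. Every IFNγ library lay above every Naïve library, and in each group the library of replicate 1 was the lowest. IFNγ raised Ctss 1.72-fold (log2 0.78 ± 0.21, adjusted p = 0.0357), and the log2 difference within same-numbered libraries was 0.77, 0.79 and 0.78. This call was lost without Naïve replicates 1, 2 or 3, αCD3 replicate 3, IFNγ replicates 2 or 3 or LPS replicate 3 (0.62 to 0.88, with adjusted p from 0.0520 to 0.133), whereas with the block it was 0.78 ± 0.058, adjusted p = 1.66e-05. Ctss was also higher with IFNγ than with αCD3 (log2 0.77 ± 0.21, adjusted p = 0.0152), a call lost without IFNγ replicates 2 or 3 (0.67 to 0.69, with adjusted p from 0.0538 to 0.0568).

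The αCD3 libraries overlapped the Naïve ones (log2 0.0091 ± 0.21, adjusted p = 0.979), and so did the LPS libraries (0.34 ± 0.21, adjusted p = 0.207). With the block, Ctss was higher in LPS than in Naïve cells (0.36 ± 0.058, adjusted p = 0.000407), lower in αCD3 than in LPS cells (−0.34 ± 0.058, adjusted p = 0.00138) and higher in IFNγ than in LPS cells (0.43 ± 0.058, adjusted p = 0.000143). Scaled by library size alone, the blocked difference between LPS and Naïve cells was 0.15, adjusted p = 0.0551. Without the block, leaving out IFNγ replicate 1 (0.62, adjusted p = 0.0390) brought the IFNγ and LPS groups past the threshold. The macrophage and monocyte genes summed to 1168 to 2038 CPM with IFNγ and to 729 to 1359 CPM in Naïve libraries, with 2 of 15 tested genes higher and 1 lower, and their part in the Ctss change was not tested.

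Cathepsin H is an aminopeptidase that can activate granzyme B beside cathepsin C. Ctsh (chr9:90054152-90076089, plus strand) stood at 128, 179 and 159.6 CPM in Naïve, 107, 114 and 111 CPM in αCD3, 157, 214 and 208 CPM in IFNγ and 66.4, 67.2 and 65.9 CPM in LPS libraries. The LPS libraries lay below all others with little spread, and the αCD3 libraries lay between them and the Naïve ones. LPS lowered Ctsh 2.34-fold (log2 −1.23 ± 0.13, adjusted p = 3.43e-05), the largest fall that passed the test without the block. αCD3 lowered it 1.40-fold (log2 −0.49 ± 0.13, adjusted p = 0.0126), a call lost without Naïve replicate 2 (−0.38, adjusted p = 0.0527). IFNγ and Naïve libraries overlapped (log2 0.31 ± 0.13, adjusted p = 0.152).

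With the block, Ctsh was higher in IFNγ than in Naïve cells (0.31 ± 0.088, adjusted p = 0.0260), a result also reached without IFNγ replicate 1 (0.43, adjusted p = 0.0325) but not when the blocked libraries were scaled by size alone (0.17, adjusted p = 0.163). IFNγ exceeded LPS 2.91-fold (log2 1.54 ± 0.13, adjusted p = 8.19e-06) and αCD3 1.75-fold (log2 0.80 ± 0.13, adjusted p = 0.000685), and αCD3 exceeded LPS 1.67-fold (log2 0.74 ± 0.13, adjusted p = 0.00312). Thus the 3 stimulated groups were separated in Ctsh, in the order IFNγ, αCD3 and LPS.

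Cathepsin L is a broad endopeptidase. Ctsl (chr13:64359337-64370890, minus strand) had the lowest counts of the members, and only 71.8% of its 31-base words are unique among annotated transcripts, so that its share of reads is uncertain. It stood at 10.1, 41.4 and 29.5 CPM in Naïve, 7.51, 20.4 and 9.50 CPM in αCD3, 9.31, 23.4 and 10.6 CPM in IFNγ and 8.90, 14.7 and 8.61 CPM in LPS libraries. The Naïve library of replicate 1 lay within the range of the stimulated groups, the other two above it. Log2 differences from Naïve cells were −1.13 ± 0.55, adjusted p = 0.131 with αCD3, −0.90 ± 0.55, adjusted p = 0.352 with IFNγ and −1.32 ± 0.56, adjusted p = 0.0740 with LPS. None passed edgeR's test with TMM scaling without the block, and with the block all 3 did (−1.07 ± 0.26, adjusted p = 0.00788 for αCD3, −0.85 ± 0.26, adjusted p = 0.0459 for IFNγ and −1.23 ± 0.27, adjusted p = 0.00410 for LPS). Without the block the αCD3 difference passed when Naïve replicate 1 (−1.53, adjusted p = 0.0387) was left out, and so did the LPS difference when Naïve replicate 1 (−1.72, adjusted p = 0.0197) was. The LPS difference also passed without the block under DESeq2 (−1.34, adjusted p = 0.0259) and with library size alone (−1.53, adjusted p = 0.0363). In replicates 2 and 3 alone, none of the 3 passed the test (adjusted p = 0.112, 0.226 and 0.0548).

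Cathepsin B, an endopeptidase that also removes dipeptides from carboxyl ends, gave a like picture at a higher count. Ctsb (chr14:63122462-63145923, plus strand) stood at 271, 482 and 463 CPM in Naïve, 229.6, 271 and 325 CPM in αCD3, 264, 387 and 415 CPM in IFNγ and 231, 287 and 303 CPM in LPS libraries. The Naïve library of replicate 1 again lay within the stimulated range and the other two above it. Its 31-base words are unique to 87.0%. No difference passed edgeR's test with TMM scaling without the block, in which log2 differences from Naïve cells were −0.56 ± 0.24, adjusted p = 0.0864 with αCD3, −0.19 ± 0.24, adjusted p = 0.678 with IFNγ and −0.57 ± 0.24, adjusted p = 0.0708 with LPS. With the block, Ctsb was lower with αCD3 (−0.53 ± 0.097, adjusted p = 0.00144) and with LPS (−0.54 ± 0.098, adjusted p = 0.00105) than in Naïve cells, and higher with IFNγ than with αCD3 (0.35 ± 0.097, adjusted p = 0.0135) or LPS (0.36 ± 0.098, adjusted p = 0.0118). Without the block, the αCD3 difference passed without Naïve replicate 1 (−0.78, adjusted p = 0.0158) and the LPS difference without Naïve replicate 1 or IFNγ replicate 1 (−0.58 to −0.79, with adjusted p from 0.0116 to 0.0483). Both also passed without the block under DESeq2 (−0.57, adjusted p = 0.0443 and −0.58, adjusted p = 0.0351) and with library size alone (−0.67, adjusted p = 0.0362 and −0.78, adjusted p = 0.0141).

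The macrophage and monocyte genes, which were also low in the libraries of replicate 1, fell with αCD3 in 6 and rose in 1 of 15 tested, and fell with LPS in 8 and rose in 2. Their summed level was 632 to 1172 CPM with αCD3 and 803 to 1429 CPM with LPS, against 729 to 1359 CPM in Naïve libraries. Whether Ctsb and Ctsl followed those cells was not tested.

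Cathepsin Z, also called cathepsin X, is a carboxypeptidase. Ctsz (chr2:174427493-174439039, minus strand) stood at 270.3, 368 and 397 CPM in Naïve, 245, 298 and 321 CPM in αCD3, 282, 359 and 398 CPM in IFNγ and 402, 489.9 and 496 CPM in LPS libraries. It was the member whose mean was highest with LPS, and all LPS libraries lay above all others. αCD3 cells had less Ctsz than LPS cells (log2 −0.68 ± 0.17, adjusted p = 0.0175), a call lost without αCD3 replicate 1 or LPS replicates 2 or 3 (−0.58 to −0.64, with adjusted p from 0.0629 to 0.0643). The difference between LPS and Naïve cells was 0.42 ± 0.17, adjusted p = 0.0586 without the block and 0.44 ± 0.051, adjusted p = 4.11e-05 with it. It also passed without Naïve replicate 3, IFNγ replicate 1 or LPS replicate 1 (0.41 to 0.53, with adjusted p from 0.0395 to 0.0487), and its size was 0.23, adjusted p = 0.00499 when the blocked libraries were scaled by size alone. Under DESeq2, without the block, it was 0.41, adjusted p = 0.0461.

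Between IFNγ and LPS cells the Ctsz difference was −0.42 ± 0.17, adjusted p = 0.0713, which passed with the block (−0.43 ± 0.051, adjusted p = 5.74e-05) and without Naïve replicate 1 or LPS replicate 1 (−0.42 to −0.51, with adjusted p from 0.0395 to 0.0481). With the block, Ctsz was also lower in αCD3 than in Naïve cells (−0.25 ± 0.051, adjusted p = 0.00217) and higher in IFNγ than in αCD3 cells (0.26 ± 0.051, adjusted p = 0.00177). IFNγ and Naïve cells were near each other in both fits (0.0053 ± 0.17, adjusted p = 0.991 and 0.0091 ± 0.051, adjusted p = 0.922). Ctsz and Ctsh therefore had their extremes with LPS in opposite directions. The 9 dendritic cell genes summed to 240 to 324 CPM with LPS, against 91.3 to 152 CPM in Naïve, 105 to 234 CPM in αCD3 and 117 to 261 CPM in IFNγ libraries. Of 8 tested, 2 rose and 1 fell with LPS against Naïve cells. Of 15 tested macrophage and monocyte genes, 2 rose and 8 fell. The part of these cells in the Ctsz differences was not tested.

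Cathepsin W is found in the endoplasmic reticulum of CD8 T and NK cells. Ctsw (chr19:5465043-5468507, minus strand) stood at 48.3, 44.7 and 41.8 CPM in Naïve, 45.4, 40.7 and 40.6 CPM in αCD3, 47.3, 41.8 and 48.6 CPM in IFNγ and 37.2, 34.3 and 41.7 CPM in LPS libraries. Its group means spanned the narrowest relative range of the members, from 37.7 to 45.9 CPM. LPS lowered it 1.19-fold (log2 −0.25 ± 0.095, adjusted p = 0.0468), and IFNγ exceeded LPS (log2 0.28 ± 0.095, adjusted p = 0.0356). Both calls lay close to the threshold. The first was lost without Naïve replicates 1 or 2, αCD3 replicates 2 or 3, IFNγ replicate 3 or LPS replicates 1 or 2 (−0.19 to −0.26, with adjusted p from 0.0547 to 0.174), and the second without IFNγ replicates 1 or 3 or LPS replicates 1 or 2 (0.22 to 0.27, with adjusted p from 0.0758 to 0.136). Neither passed in replicates 2 and 3 alone (−0.18 ± 0.11, adjusted p = 0.187 and 0.23 ± 0.11, adjusted p = 0.120). The 10 T cell genes summed to 974 to 1190 CPM with LPS and to 1340 to 1549 CPM in Naïve libraries, with 9 of 10 lower, and the 2 CD8 genes did not pass the test in either direction. Their part in the Ctsw difference was not tested.

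Cathepsins D and A fell together with αCD3 and with LPS. Cathepsin D is the main aspartic endopeptidase of lysosomes and cathepsin A a serine carboxypeptidase that also shields neuraminidase from degradation. Ctsd (chr7:142375911-142388038, minus strand) stood at 312, 429 and 433 CPM in Naïve, 244, 205 and 254 CPM in αCD3, 297, 282 and 319.7 CPM in IFNγ and 264, 202 and 229 CPM in LPS libraries. Its 31-base words are unique to 66.8%, since an overlapping gene on the same strand, Gm49369, shares the rest. All αCD3 and LPS libraries lay below all Naïve libraries. αCD3 lowered Ctsd 1.67-fold (log2 −0.74 ± 0.14, adjusted p = 0.00201) and LPS 1.69-fold (log2 −0.76 ± 0.14, adjusted p = 0.00126), and both calls held when any single library was left out.

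With IFNγ the Ctsd difference from Naïve cells was −0.39 ± 0.14, adjusted p = 0.104, which passed without Naïve replicate 1 (−0.53, adjusted p = 0.0243), in replicates 2 and 3 alone (−0.54 ± 0.11, adjusted p = 0.0132) and with library size alone (−0.53, adjusted p = 0.0324), but not with the block (−0.39 ± 0.14, adjusted p = 0.0768). All IFNγ libraries lay above all αCD3 and LPS libraries, with log2 differences of 0.35 ± 0.14, adjusted p = 0.0695 and 0.37 ± 0.14, adjusted p = 0.0550. The first of these passed without Naïve replicate 1 (0.35, adjusted p = 0.0290), and the second without Naïve replicate 1 or LPS replicate 1 (0.37 to 0.47, with adjusted p from 0.0217 to 0.0273). Neither passed with the block (0.36 ± 0.14, adjusted p = 0.0628 and 0.37 ± 0.14, adjusted p = 0.0526), whereas both did in replicates 2 and 3 alone (0.37 ± 0.11, adjusted p = 0.0339 and 0.46 ± 0.12, adjusted p = 0.0126) and under DESeq2 (0.37, adjusted p = 0.0324 and 0.39, adjusted p = 0.0224). With library size alone the second passed (0.44, adjusted p = 0.0352) and the first did not (0.32, adjusted p = 0.113).

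Ctsa (chr2:164832873-164841032, plus strand) stood at 173, 218 and 219 CPM in Naïve, 139, 122 and 148 CPM in αCD3, 149, 159.7 and 152 CPM in IFNγ and 90.9, 93.3 and 111 CPM in LPS libraries. Every stimulated library lay below every Naïve library, and the order Naïve, IFNγ, αCD3 and LPS held without overlap. LPS lowered Ctsa 2.06-fold (log2 −1.04 ± 0.11, adjusted p = 3.57e-05), αCD3 1.49-fold (log2 −0.58 ± 0.11, adjusted p = 0.00236) and IFNγ 1.32-fold (log2 −0.40 ± 0.11, adjusted p = 0.0382). The IFNγ call was lost without Naïve replicates 2 or 3 or IFNγ replicates 1, 2 or 3 (−0.35 to −0.43, with adjusted p from 0.0816 to 0.137). Ctsa was higher in αCD3 than in LPS cells (log2 0.47 ± 0.11, adjusted p = 0.0152), a call lost without αCD3 replicate 3 or LPS replicate 2 (0.40 to 0.43, with adjusted p from 0.0615 to 0.0645), and higher in IFNγ than in LPS cells (log2 0.64 ± 0.11, adjusted p = 0.00104). IFNγ and αCD3 cells did not differ beyond the threshold (log2 0.17 ± 0.11, adjusted p = 0.256). Ctsa was the only member called lower than in Naïve cells with all 3 stimuli in the fit without the block, and with the block Ctsl was too. Estimates of Ctsb, Ctsl and Ctsd without the block were also below 0 with all 3 stimuli, but did not pass the test with every stimulus. The 31-base words of Ctsa are unique to 85.4%.

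Markers of other cells also differed in the groups where Ctsd and Ctsa fell. The 10 B cell genes summed to 3533 to 3804 CPM in Naïve, 2448 to 2846 CPM in αCD3 and 2103 to 3249 CPM in LPS libraries. The 16 macrophage and monocyte genes summed to 729 to 1359, 632 to 1172 and 803 to 1429 CPM in these groups, and of the 15 tested 6 fell and 1 rose with αCD3 and 8 fell and 2 rose with LPS. With IFNγ, where Ctsa fell as well, the B cell genes summed to 2805 to 2917 CPM and the macrophage and monocyte genes to 1168 to 2038 CPM. Of 10 tested B cell genes 2 fell and 0 rose there, and of 15 macrophage and monocyte genes 2 rose and 1 fell. The part of these cells in the Ctsd and Ctsa differences was not tested.

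The promoters of Ctsd and Ctsa are shown because TFEB and its relatives, which control many lysosomal genes, can bind E-box sequences. Capitals mark CACGTG, which reads the same on both strands.
Ctsd, chr7:142387778-142388077, minus strand: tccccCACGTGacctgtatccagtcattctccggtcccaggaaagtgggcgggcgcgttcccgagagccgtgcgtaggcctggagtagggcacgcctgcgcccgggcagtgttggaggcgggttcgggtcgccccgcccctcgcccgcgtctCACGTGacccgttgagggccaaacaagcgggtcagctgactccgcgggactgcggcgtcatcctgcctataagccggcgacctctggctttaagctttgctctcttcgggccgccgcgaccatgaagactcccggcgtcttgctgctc
Ctsa, second start, chr2:164833523-164833822, plus strand: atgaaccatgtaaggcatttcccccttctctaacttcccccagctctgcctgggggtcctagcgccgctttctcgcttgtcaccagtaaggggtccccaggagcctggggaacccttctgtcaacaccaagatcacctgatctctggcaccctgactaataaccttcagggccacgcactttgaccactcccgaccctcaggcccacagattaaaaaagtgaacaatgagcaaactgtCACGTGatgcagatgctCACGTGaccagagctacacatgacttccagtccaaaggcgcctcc
The Ctsd window held 2 matches, 245 and 98 bases before the start (chr7:142388067-142388072 and chr7:142387920-142387925). The window of the second Ctsa start also held 2, of which 1 lay 12 bases before the start (chr2:164833761-164833766) and 1 lay just past it (chr2:164833778-164833783), and the window of the first Ctsa start held none. Ctsl had 1 match, 236 bases before its start, and the windows of Cst7, Ctsz, Ctss and Ctsc had none. These letters stand in 7.15% of the 32851 promoters.

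Cystatin F, the inhibitor, is made by T cells, NK cells and myeloid cells and reaches lysosomes like the enzymes it blocks. Cst7 (chr2:150570415-150578944, plus strand) stood at 28, 36.2 and 43.6 CPM in Naïve, 35.3, 43.8 and 46.8 CPM in αCD3, 25.2, 30.3 and 37.7 CPM in IFNγ and 20.8, 21.2 and 28.6 CPM in LPS libraries. The LPS libraries lay below all αCD3 libraries, and 1 of them overlapped the Naïve range. LPS lowered Cst7 1.52-fold (log2 −0.61 ± 0.20, adjusted p = 0.0287), a call lost without Naïve replicates 2 or 3 or LPS replicates 1 or 2 (−0.44 to −0.60, with adjusted p from 0.0634 to 0.112), and with the block the fall was −0.60 ± 0.079, adjusted p = 8.77e-05. Cst7 was 1.77 times higher with αCD3 than with LPS (log2 0.83 ± 0.20, adjusted p = 0.0166), a call lost without αCD3 replicate 3 or LPS replicate 2 (0.74 to 0.76, with adjusted p from 0.0604 to 0.0704).

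With the block, αCD3 cells had more Cst7 than Naïve cells (0.24 ± 0.074, adjusted p = 0.0215, against 0.22 ± 0.20, adjusted p = 0.402 without it), though not when those libraries were scaled by size alone (0.13, adjusted p = 0.201) or in replicates 2 and 3 alone (0.19 ± 0.16, adjusted p = 0.374). IFNγ cells had less than αCD3 cells (−0.44 ± 0.077, adjusted p = 0.000785) and more than LPS cells (0.40 ± 0.081, adjusted p = 0.00201) with the block, whereas neither passed without it (−0.43 ± 0.20, adjusted p = 0.117 and 0.40 ± 0.20, adjusted p = 0.148) or in replicates 2 and 3 alone (−0.44 ± 0.17, adjusted p = 0.0628 and 0.43 ± 0.17, adjusted p = 0.0777). IFNγ and Naïve cells did not differ beyond the threshold in either fit (−0.21 ± 0.20, adjusted p = 0.571 and −0.21 ± 0.077, adjusted p = 0.0793), but did when the blocked libraries were scaled by size alone (−0.35, adjusted p = 0.00789). The NK cell genes summed to 146 to 186 CPM in αCD3 and 71.3 to 125 CPM in LPS libraries, against 79.5 to 88.3 CPM in Naïve libraries, with Eomes alone higher with αCD3 (mean 156 CPM) and Klrb1c alone lower with LPS. The macrophage and monocyte genes summed to 632 to 1172 CPM with αCD3 and to 803 to 1429 CPM with LPS, against 729 to 1359 CPM in Naïve libraries. The part of these cells in the Cst7 differences was not tested.

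**Figure D3:**
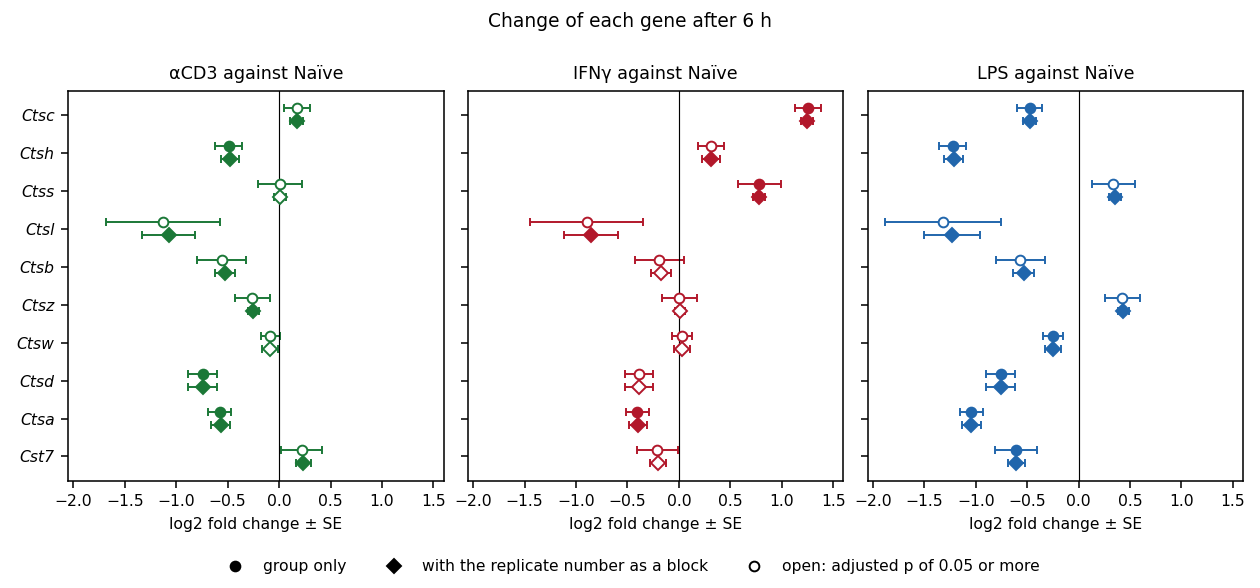
Log2 fold change against Naïve cells ± SE (horizontal axis) for each gene (vertical axis) in 3 panels, without (circles) and with (diamonds) the replicate number as a block, filled where the adjusted p was under 0.05. Estimates lie close together in the 2 fits, and errors are smaller with the block except for Ctsd, where they are nearly equal (0.14 in all 3 comparisons). Filled symbols go from 3 to 8 with αCD3, 3 to 5 with IFNγ and 6 to 10 with LPS.

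Enzyme and inhibitor transcripts were also set against each other within libraries, as a ratio of CPM that is not scaled to length and is therefore read only between libraries. The ratio of Ctsc to Cst7 was 6.09, 5.34 and 4.50 in Naïve libraries, 5.17, 5.39 and 4.57 with αCD3, and 6.12, 6.47 and 4.85 with LPS. With IFNγ it was 14.5, 16.2 and 12.7. The IFNγ libraries thus stood above all others, whereas the other 3 groups overlapped. The ratio of Ctss to Cst7 did not set IFNγ apart, at 19.4, 24.3 and 19.3 with IFNγ and 19.9, 24.4 and 17.8 with LPS, both above the 8.39 to 11.8 of the Naïve and αCD3 libraries. That of Ctsw to Cst7 ran from 0.867 to 1.88 over the 12 libraries. The αCD3 libraries (1.287, 0.930 and 0.867) lay below all LPS libraries (1.79, 1.62 and 1.46). They also lay, by a narrow margin, below all IFNγ libraries (1.88, 1.38 and 1.289). IFNγ and LPS libraries overlapped, and the Naïve libraries (1.72, 1.23 and 0.957) overlapped every other group. The ratio of Ctsc to Ctsh, the pair of granzyme-activating enzymes, was 1.33, 1.08 and 1.23 in Naïve libraries, 1.71, 2.07 and 1.92 with αCD3, 2.32, 2.30 and 2.30 with IFNγ and 1.92, 2.04 and 2.11 with LPS. It was lowest in the Naïve libraries and highest in the IFNγ libraries, with the αCD3 and LPS libraries overlapping between them. These ratios are descriptions and were not tested.

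Levels were compared between genes as CPM per kb of exon. In Naïve libraries the order was Ctss (279 ± 59.5, SD, n = 3), Ctsz (239 ± 46.0), Ctsd (167 ± 29.2), Ctsb (67.0 ± 19.3), Ctsa (43.1 ± 5.56), Cst7 (36.5 ± 7.94), Ctsh (34.6 ± 5.65), Ctsc (32.1 ± 2.46), Ctsw (23.8 ± 1.73) and Ctsl (4.16 ± 2.43). The ranges of Ctss and Ctsz overlapped, as did those of neighbours from Ctsb down to Ctsc, while the steps from Ctsz to Ctsd, Ctsd to Ctsb, Ctsc to Ctsw and Ctsw to Ctsl did not overlap. Ctss, Ctsz and Ctsd kept the first 3 places and Ctsl the last in every group. With IFNγ, Ctsc moved to the fourth place (76.7 ± 12), its range overlapping that of Ctsb (58.7 ± 13.3). With LPS, Ctsh dropped to 14.8 ± 0.144 and the ninth place. The middle of the order depends on the length used, since per kb of the longest transcript Ctsc took the fifth and Ctsa the seventh place in Naïve libraries, and Ctsh the seventh with LPS.

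**Figure D4:**
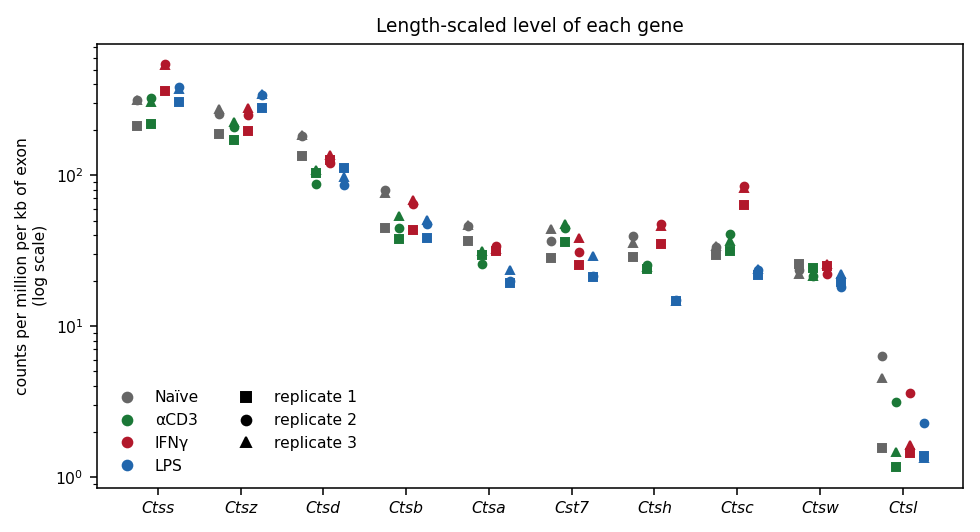
Level per kb of exon in CPM (vertical axis, log scale) of each gene in the 12 libraries, ordered by the mean in Naïve libraries. Ctss, Ctsz and Ctsd lead in every group, and Ctsl lies below 7 CPM per kb in every library.

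Other genes of the lysosome were described from lists, by counts beside the shares of all tested genes given above. Of 9 tested further lysosomal proteases (of 11 listed), αCD3 lowered 3 and raised 0, IFNγ raised 2 and lowered 1, and LPS lowered 8 and raised 0, with median log2 changes of −0.35, −0.13 and −0.74. The LPS fall included prolylcarboxypeptidase, Prcp (−1.08 ± 0.25, adjusted p = 0.00440) and the aspartic peptidase Ctse (−0.91 ± 0.11, adjusted p = 9.26e-05), and Lgmn, the asparagine-specific peptidase that matures several cathepsins, fell with αCD3 (−1.06 ± 0.24, adjusted p = 0.00597). With the block these counts were 5 lower with αCD3, 2 higher and 2 lower with IFNγ and 8 lower with LPS. Without Naïve replicate 1 the αCD3 count was 6 and the IFNγ count 5 in place of 3 each.

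Of 26 lysosomal membrane proteins and acid hydrolases, αCD3 lowered 11 and raised 1, IFNγ raised 4 and lowered 1, and LPS lowered 14 and raised 1 (with the block, 15 lower and 1 higher, 6 and 6, and 17 and 4). Prosaposin, Psap, which cathepsin D cuts, fell with LPS (−1.41 ± 0.26, adjusted p = 0.00133), as did the sulfamidase Sgsh (−1.86 ± 0.36, adjusted p = 0.00170), whereas progranulin, Grn, rose (1.46 ± 0.32, adjusted p = 0.00376). Without αCD3 replicate 2 the αCD3 counts of this list were 7 lower and 0 higher. Of 18 sorting and proton pump genes, αCD3 lowered 6 and raised 2, IFNγ lowered 3 and raised 2, and LPS lowered 7 and raised 2 (with the block, 8 lower and 2 higher, 4 and 3, and 9 and 4). The sorting receptors Sort1 (−1.78 ± 0.31, adjusted p = 0.000905) and Igf2r (−0.60 ± 0.12, adjusted p = 0.00204) fell with LPS, and the pump subunit Atp6v0d1 fell with αCD3 (−0.57 ± 0.082, adjusted p = 0.000393). The IFNγ count of 5 dropped to 3 without Naïve replicate 3 or IFNγ replicate 2. Of the 4 genes of the TFEB group, αCD3 and IFNγ lowered 1 each and LPS 2, with 0 raised (3, 1 and 3 lowered with the block). Tfeb itself fell with LPS (−0.83 ± 0.18, adjusted p = 0.00378), Mitf fell with LPS (−0.99 ± 0.37, adjusted p = 0.0465) and Tfec with IFNγ (−2.76 ± 0.67, adjusted p = 0.0236). The Mitf call was lost without Naïve replicates 2 or 3, αCD3 replicate 2, IFNγ replicates 2 or 3 or any LPS library (adjusted p from 0.0587 to 0.186), and the Tfec call without Naïve replicates 2 or 3 or any IFNγ library (adjusted p from 0.0707 to 0.0818), which leaves 1 gene called with LPS and 0 with IFNγ. The αCD3 count of this group ran from 0 without αCD3 replicate 2 to 3 without Naïve replicate 1, with 2 without αCD3 replicate 1.

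Of 5 tested inhibitors of cathepsins other than Cst7 (of 11 listed), 1 rose with each stimulus and 0 fell, and with the block 1 also fell with αCD3 and with LPS. The riser was the serpin Serpina3g in each case, with log2 changes of 1.86 ± 0.61, adjusted p = 0.0347 for αCD3, 3.68 ± 0.66, adjusted p = 0.00529 for IFNγ and 2.39 ± 0.62, adjusted p = 0.00930 for LPS. The αCD3 call was lost without any 1 Naïve library or αCD3 replicates 2 or 3 (adjusted p from 0.0613 to 0.125). Without Naïve replicate 1 or LPS replicate 1, 1 inhibitor also fell with LPS. Sequence relatives of Serpina3g in the Serpina3 cluster may share reads, so that its value is uncertain. It stood at 86.6, 566 and 486 CPM with LPS and at 41.3, 83.6 and 92.5 CPM in Naïve libraries. LPS replicate 1 thus lay within the Naïve range. Inhibitor genes changed in different directions with LPS, with Serpina3g up and Cst7 down, the latter a call lost when some single libraries were left out.

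Of 8 granule genes, whose products cathepsins C and H process or sit beside, αCD3 raised 4 and lowered 1, IFNγ raised 1 and LPS raised 3 (with the block, 4 higher and 2 lower, 2 and 0, and 4 and 0). Granzyme B, Gzmb, rose with αCD3 (3.96 ± 0.93, adjusted p = 0.00741), as did the granule membrane gene Nkg7 (1.78 ± 0.24, adjusted p = 0.000325), whereas granzyme K, Gzmk, fell (−0.75 ± 0.19, adjusted p = 0.0107), a call lost in replicates 2 and 3 alone (−0.63 ± 0.24, adjusted p = 0.0582), where 5 granule genes rose and 0 fell. In the αCD3 libraries Gzmb stood at 54.2, 561 and 422 CPM, with replicate 1 far below the others, against 13.4, 24.1 and 29.3 CPM in Naïve libraries. The IFNγ difference of Gzmb was 1.26 ± 0.87, adjusted p = 0.416, which passed in replicates 2 and 3 alone (1.36 ± 0.19, adjusted p = 0.00383), where IFNγ raised 3 granule genes. With 1 library left out, the IFNγ count dropped to 0 without Naïve replicates 1 or 2 or IFNγ replicates 2 or 3, and the LPS count went to 1 without Naïve replicate 3 or LPS replicate 2 and to 5 without LPS replicate 1.

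Of 7 tested class II partners of cathepsins S and L (of 8 listed), αCD3 lowered 7, IFNγ 5 and LPS 6, and 0 rose (7, 6 and 7 lowered with the block). The class II chain genes H2-Eb1 (−1.03 ± 0.19, adjusted p = 0.00130) and H2-Aa (−0.78 ± 0.089, adjusted p = 5.24e-05) and the peptide-loading gene H2-DMb1 (−0.96 ± 0.096, adjusted p = 2.25e-05) fell with LPS. With IFNγ, when Ctss rose, H2-Aa fell as well (−0.46 ± 0.089, adjusted p = 0.00686). B cell markers fell in 6 of 10 with αCD3, in 2 of 10 with IFNγ and in 3 of 10 with LPS, where 1 rose, and the part of B cells in these falls was not tested. Of 6 genes listed because they are known to respond to activation or interferon, αCD3 and IFNγ raised 3 each and LPS 4, with 0 lowered. The interferon-induced GTPase gene Gbp2 rose with all 3 stimuli, by 1.32 ± 0.36, adjusted p = 0.0162 with αCD3, 4.09 ± 0.40, adjusted p = 0.000322 with IFNγ and 2.69 ± 0.38, adjusted p = 0.000261 with LPS. The interleukin 2 receptor gene Il2ra rose with αCD3 (2.17 ± 0.28, adjusted p = 0.000209), IFNγ (0.93 ± 0.27, adjusted p = 0.0469) and LPS (2.70 ± 0.28, adjusted p = 3.51e-05), and Irf1 rose with IFNγ (2.11 ± 0.32, adjusted p = 0.00226) and LPS (1.57 ± 0.32, adjusted p = 0.00227). The Gbp2 call with αCD3 was lost without Naïve replicate 1 or αCD3 replicate 2 (adjusted p from 0.0568 to 0.0718), and the Il2ra call with IFNγ without any 1 Naïve or IFNγ library, αCD3 replicate 3 or LPS replicate 3 (adjusted p from 0.0631 to 0.141).

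Finally, genes with the most similar profile over the 12 libraries were listed for the 7 members that differed among the groups, by the root mean square difference of centred log2 CPM. Ctss was nearest to Npc2 (0.086), a cholesterol carrier of the lysosome, and to Vwa5a (0.11). Ctsd was nearest to Npc1 (0.086), the membrane partner in that transport, and to Aes (0.12). The remaining pairs were Ctsa with Uap1l1 and Ppt2 (0.12 each), Ctsz with Ric1 (0.12) and Prdx4 (0.13), Cst7 with Izumo1r (0.17) and Lrrc8c (0.18), Ctsh with Acvrl1 and Pld4 (0.18 each) and Ctsc with Tns3 (0.18) and Atp8a1 (0.19). Among the members, Ctsd and Ctsa were closest (0.20), followed by Ctsb and Ctsd (0.26) and Ctsb and Ctsa (0.29). The measure takes in the replicate number as well as the group, and is a description.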

How the data were processed

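mRNA libraries of 12 spleen CD8 T cell samples were analysed from the deposited table, which per the labels holds the authors' Kallisto output on mm10. Its values are estimated counts per gene, deposited unscaled with 1 column per library. The Kallisto version and annotation are not given in the sources used here. Processing notes also name DESeq2 1.24.0. Counts were rounded, scaled by TMM and tested with edgeR 4.0.16 (quasi-likelihood, robust, R 4.3.3) in 1 fit of all 12 libraries with group as the term, after filterByExpr kept 12122 genes. P-values were adjusted over all of these (Benjamini-Hochberg) and called under 0.05. SE is the log2 change divided by the root of F. CPM use TMM-scaled library sizes. DESeq2 1.42.0 and limma-voom (limma 3.58.1) were alternatives. The code was tested on simulated data.

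Replicate numbers come from the labels. Correlations of deviations from group means between same-numbered libraries were 0.12 to 0.40 in all 18 pairs, so the numbers were taken to pair libraries and a fit with a replicate block is given where it changes a call. Within groups, chi-square per degree of freedom was 20.0 to 51.7 between replicate 1 and the others and 4.48 to 5.66 between replicates 2 and 3, all above sampling noise. The members and lists were chosen with earlier results of these data known. From each list, up to 3 genes called against Naïve cells were named, by the largest change, where the higher of both group means reached 5 CPM. For each member called among the 4 groups the 2 most similar genes were named. The IFNγ values of Gzmb and H2-Aa, the CPM of Gzmb and Serpina3g and the values of Gbp2, Il2ra and Irf1 in further comparisons were added after they were seen. Gene models are from GENCODE M21 (GRCm38), matched by 20612 of 20778 symbols, and promoters from RefSeq (GRCm38.p6). Depth was 10196200 to 27610200 counts per library.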

Additional observations from a re-analysis of the deposited data

How the results depend on the processing

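Called members kept their direction under every alternative run. Of 60 log2 changes, 24 were called, and the replicate block gained 19 calls and lost 0. With it, members called were 8 for αCD3, 5 for IFNγ and 10 for LPS against Naïve cells, 6 for IFNγ against αCD3, 8 for IFNγ against LPS, and not moved beyond 1.5 times elsewhere. With replicates 2 and 3 alone, chosen after seeing the data, they were 6, 5, 8, 6 and 7, and calls of Ctsw were lost (−0.18 for LPS against Naïve, 0.23 for IFNγ against LPS). With the block and library size alone, also chosen afterwards, they were 6, 7, 9, 6 and 9, and the split with IFNγ turned from 2 higher and 1 lower to 2 higher and 5 lower. In that fit the shares of all tested genes higher and lower than in Naïve cells were 21.5% and 32.9% with αCD3, 9.17% and 29.5% with IFNγ and 20.4% and 43% with LPS. They were 21.6% and 27.5% for IFNγ against αCD3 and 30.7% and 22.8% for IFNγ against LPS. Leaving out 1 library gave 2 to 5 for αCD3, 1 to 3 for IFNγ and 4 to 8 for LPS against Naïve, 2 to 4 for IFNγ against αCD3, 3 to 6 for IFNγ against LPS, 2 to 5 for αCD3 against LPS and 5 to 9 among the 4 groups. The lowest IFNγ count, 1, came without Naïve replicate 2 or 3 or IFNγ replicate 2 or 3, and the lowest αCD3 against LPS count, 2, without LPS replicate 2. Without a count filter, the calls of Ctss with IFNγ (0.76) and of Ctsw for IFNγ against LPS (0.28) were lost. DESeq2 called 4, 3 and 9 members against Naïve cells with αCD3, IFNγ and LPS, and lost none of the 24 calls. Shares of all tested genes are not given for DESeq2, for replicates 2 and 3 alone or with 1 library left out. Member counts of those settings therefore have no background beside them.

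Over all genes, IFNγ against Naïve called 1508 and, under alternatives, 2279 (library size alone), 3020 (block), 2837 (replicates 2 and 3), 4683 (block and library size) and 787 to 1651 (1 library left out). αCD3 against LPS called 2351 and then 4202 (block), 3582 (replicates 2 and 3), 4389 (block and library size) and 1429 to 2590 (1 library left out). Library size alone moved the median log2 change of all genes to −0.13 with αCD3, −0.16 with IFNγ, −0.22 with LPS and 0.11 for IFNγ against LPS. The share of calls that were higher went from 59.3% to 44% with αCD3, 65.6% to 31.4% with IFNγ, 54.7% to 32.8% with LPS and 49.7% to 68.8% for αCD3 against LPS. List counts moved beyond 1.5 times in 17 of 48 cases with the block, 24 of 48 with replicates 2 and 3 and 9 of 48 with library size alone.

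Log2 changes that turned sign were all uncalled. Ctss with αCD3 turned under DESeq2 size factors (−0.0020), library size alone (−0.11) and the block with library size (−0.099), and ran from −0.16 to 0.16 with 1 library left out. Ctsw with IFNγ turned under library size (−0.11, and −0.11 with the block), from −0.020 to 0.094 with 1 library left out. Ctsz with IFNγ turned under library size (−0.14, and −0.13 with the block), no filter (−0.021) and replicates 2 and 3 (−0.033), from −0.14 to 0.12 with 1 library left out. For αCD3 against LPS, Ctsb and Ctsl turned under limma-voom (−0.0075 and −0.031), and with 1 library left out the ranges were −0.13 to 0.12 for Ctsb, −0.35 to 0.49 for Ctsl and −0.073 to 0.12 for Ctsd. Ctsl ran from −0.30 to 0.77 for IFNγ against αCD3 and from −0.11 to 0.72 for IFNγ against LPS. The cause was not tested in any of these.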

Other observations

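Other gene groups also differed by replicate number, read beside the 16.4% of all tested genes that were higher in replicate 1 and the 17.5% that were lower. In replicate 1, against the mean of replicates 2 and 3, all 6 erythroid markers were lower (median log2 difference −2.19), as were 5 of 6 NK cell markers (−1.12), 4 of 8 granule genes (−0.60), 3 of 8 dendritic cell markers (−0.56), 4 of 8 neutrophil markers (−0.16) and 8 of 18 sorting and proton pump genes (−0.14), with 0 higher in each list. Of 26 lysosomal membrane proteins and acid hydrolases 10 were lower and 2 higher (−0.095). Of the other lists, 2 of 9 lysosomal proteases, 2 of 5 cathepsin inhibitors, 1 of 4 genes of the TFEB group and 1 of 4 platelet markers were lower, and 0 higher. Of 10 T cell markers 5 were higher (0.16) and 0 lower, whereas both CD8 genes (−0.26) and 2 of 4 CD4 T cell markers were lower (−0.19). Of 10 B cell markers 4 were higher and 1 lower (0.15). Of 7 class II partners 1 was higher and 0 lower, near the share of all genes. These counts are by edgeR's quasi-likelihood test with an adjusted p under 0.05 over all genes, and the comparison was chosen after seeing the data.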
